A study of Mus musculus with 8 samples.

Results

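The genes described here make cholesterol and fatty acids, sense sterols or move them. They are 33 genes chosen by name, with earlier results of these data known. They were followed in striatum of mice labelled PGC-1α null and of mice labelled PGC-1α wild type. A gene was kept when a probe carrying its symbol reached a detection p under 0.05 on 4 or more of the 8 arrays, without regard to group. Probes existed for 29 of the 33 genes, and 27 genes with 33 probes were kept, out of 10008 kept genes (13413 probes) among 18138 gene symbols on the array. Fasn, which encodes fatty acid synthase, was detected on 1 array and Abca1, which encodes a cholesterol exporter, on 0 of 8. Both were left out of the differences below, and Hmgcs1, Mvk, Fdft1 and Acaca are not analysed here. Srebf1 was detected on 3 arrays of each group and every other kept gene on all 8.

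Brain cholesterol is made within the brain, because lipoproteins of the blood do not cross the blood-brain barrier. The enzymes act in sequence, from the mevalonate pathway through squalene and lanosterol to cholesterol. When sterols in the endoplasmic reticulum are low, the escort protein SCAP carries the SREBP transcription factors to the Golgi, where they are cut and released to switch on these enzymes; INSIG1 holds SCAP back when sterols are high. Oligodendrocytes use much of the product for myelin, and astrocytes export cholesterol to neurons on apolipoprotein E.

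RNA came from whole striatum at postnatal day 30, from C57BL/6 mice, with 4 arrays labelled wild-type and 4 labelled null for PGC-1α. This protein, the product of Ppargc1a, is a transcriptional coactivator best known for raising mitochondrial gene expression. The labels give medium spiny neurons as the cell type although the source is tissue, and the title of the series says that PGC-1α was deleted from those neurons; the driver of any such deletion and its extent are not given in the sources used here. Markers of medium spiny neurons were present, with 11 of the 12 genes on the array kept. The arrays had mean intensities of 295.1 to 499.3 and between 13009 and 13910 detected probes. All arrays lay on 1 chip with the groups in separate positions, so position and group cannot be told apart. The labels do not state whether replicates came from different mice. Sex-linked transcripts, given below, differed between arrays of each group, so the 4 arrays of a group did not all come from the same mouse. How many mice each group holds is not known, and any arrays that share a mouse would add technical spread alone. The Ppargc1a probe differed by 0.12 (log2, SE 0.23, limma adjusted p = 0.937), and whether it lies in the deleted part is not known, so it does not check the labels.

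The labels do not give the sex of the mice, and sex-linked transcripts parted the arrays unevenly between the groups. The Y-linked Eif2s3y was detected on wild-type replicate 2 and on null replicates 1, 2 and 4 (9.14 to 9.49, log2), and it read 4.32 to 4.41 on the other 4 arrays. Xist, the transcript of the inactive X chromosome, ran the opposite way (4.59 to 4.91 against 8.26 to 8.70). This split is given beside the results it moves with.

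No gene passed the threshold in either direction. With limma and adjustment over all 13413 probes, 0 were called (0%), and 0 of the 33 member probes. At an unadjusted p under 0.05, 5 of the 27 genes were higher in null arrays, against 3.04% of all genes, and 0 were lower, against 3.93%. Of the 33 member probes 6 were higher by the same measure, against 3.21% of all probes, and 0 lower, against 3.7%. By role the 5 genes were 3 sterol enzymes, 0 regulators, 1 fatty acid gene and 1 transport gene. Without wild-type replicate 3 these counts were 1, 0, 0 and 1. With Eif2s3y detection as a covariate, a choice made after the data were seen, they were 0, 0, 0 and 1. With array weights they were 5, 0, 1 and 1. Over all 13413 probes, in either direction, 926 were under 0.05 as reported and 734, 1107 and 1294 under these settings in turn. The mean was higher in null arrays for 24 of the 27, against 48.5% of all genes. The median difference was 0.16 on the log2 scale, against -0.01 over all genes. The members were chosen with earlier results of these data known, so setting them beside all genes is a description and not an independent test. Since 0 genes passed, the values below are differences that did not pass. In tissue, fewer cells of a type and less RNA per cell cannot be told apart.

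**Figure D1:**
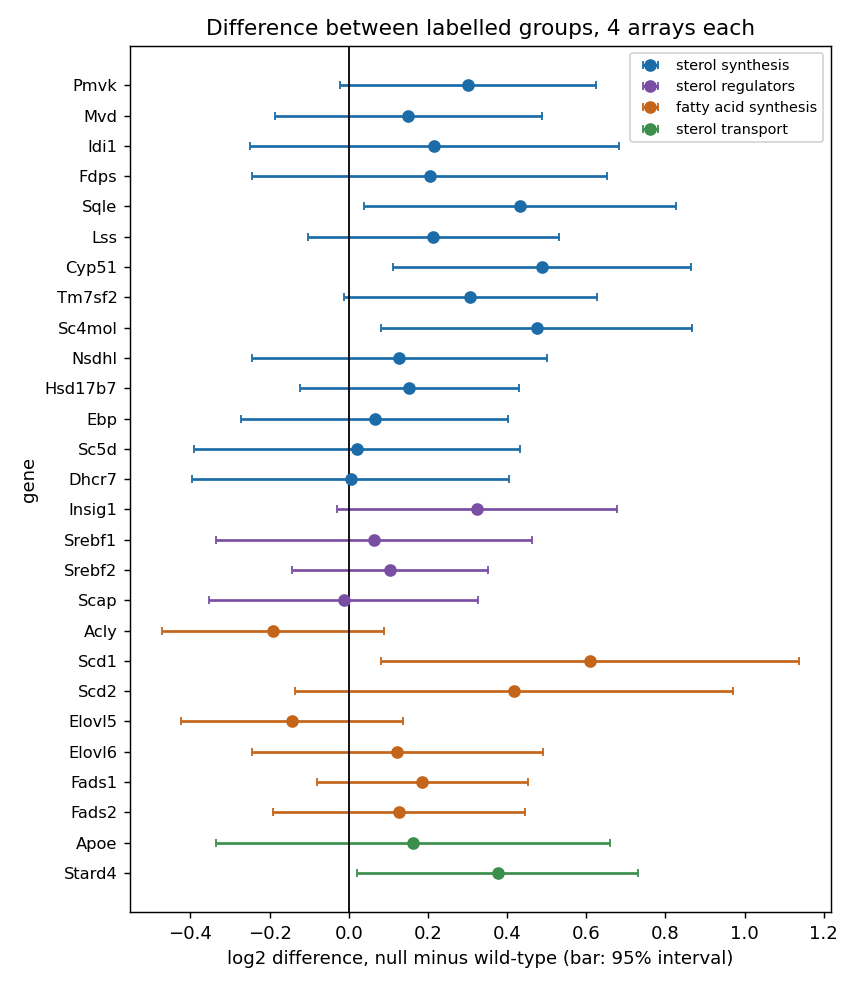
Difference between null and wild-type arrays on the log2 scale for each of the 27 genes (x axis; 1 probe per gene, bars are 95% intervals of the limma fit, n = 4 arrays per group), coloured by role. The points run from -0.19 for Acly to 0.61 for Scd1, and the intervals of Cyp51, Sc4mol, Sqle, Scd1 and Stard4 lie above 0.

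The sterol synthesis enzymes all differed in the same direction, by small amounts. All 14 measured enzymes had a higher mean in null arrays, with a median difference of 0.21 and a range from 0.01 for Dhcr7 to 0.49 for Cyp51; Dhcr7 was -0.000523 under median centring and -0.03 in the authors' processed values. With 1 array left out, 11 to 14 of the 14 stayed higher, the fewest without wild-type replicate 4. None passed (smallest limma adjusted p = 0.698). For a single enzyme the within-group SD had a median of 0.27, against 0.21 over all genes. The mean level of the 14 enzymes had an SD of 0.16 between arrays of a group.

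Cyp51 encodes lanosterol 14-alpha-demethylase, which starts the conversion of lanosterol. Its log2 levels were 8.38, 8.46, 7.77 and 8.46 for wild-type replicates 1 to 4 and 8.74, 9.03, 8.56 and 8.69 for null replicates 1 to 4, the order kept below. The groups did not overlap, although wild-type replicate 3 stood well below its group and the gap between the groups was narrow. The difference was 0.49 (SE 0.17, 1.40-fold, 95% interval 0.11 to 0.86, limma adjusted p = 0.698). Among the 27 genes 2 had no overlap, against 4.25% of all genes; both were higher in null arrays (1.5% of all genes) and 0 lower (2.75%). Of the 33 member probes 3 had none, all higher, against 4.14% of all probes in either direction and 1.54% higher.

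Sc4mol (now Msmo1) encodes the methyl sterol oxidase that acts on the C4 methyl groups in later steps. It read 9.97, 9.58, 9.22 and 9.48 in wild-type arrays, against 9.99, 10.39, 10.04 and 9.72 in null arrays. Only null replicate 4 fell among the wild-type values, below wild-type replicate 1. The difference was 0.48 (SE 0.18, 1.39-fold, adjusted p = 0.698).

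Sqle encodes squalene epoxidase, the first oxygen-requiring step of the pathway. Its brighter probe read 9.07, 9.33, 8.90 and 8.91 in wild-type arrays, against 9.28, 10.03, 9.30 and 9.34 in null arrays. Null replicate 2 stood far above the other 3 null arrays, which lay close together near the highest wild-type array. The difference was 0.43 (SE 0.18, 1.35-fold, adjusted p = 0.707), and the second probe gave 0.23 (SE 0.18).

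The other enzymes of the pathway showed smaller differences. In the mevalonate steps, phosphomevalonate kinase (Pmvk) differed by 0.30 (SE 0.15), mevalonate diphosphate decarboxylase (Mvd) by 0.15 (SE 0.15) and the isomerase gene Idi1 by 0.22 (SE 0.21). Farnesyl diphosphate synthase (Fdps), the branch point to isoprenoids, differed by 0.20 (SE 0.20), and lanosterol synthase (Lss), which closes the sterol rings, by 0.21 (SE 0.15). Beyond lanosterol, the sterol reductase gene Tm7sf2 differed by 0.31 (SE 0.15) and Hsd17b7, which encodes the ketoreductase of C4 demethylation, by 0.15 (SE 0.13). Nsdhl, the X-linked gene of the C4 decarboxylase, had 4 probes that differed by 0.11 to 0.25, with 0.13 (SE 0.17) at the brightest. The last steps had the smallest differences: the isomerase gene Ebp, also X-linked, stood at 0.07 (SE 0.15), the desaturase gene Sc5d at 0.02 (SE 0.19) and Dhcr7, which encodes 7-dehydrocholesterol reductase, at 0.01 (SE 0.18). The interval for Dhcr7 ran from -0.40 to 0.41, so a change of either sign of that size was not detectable with these arrays.

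**Figure D2:**
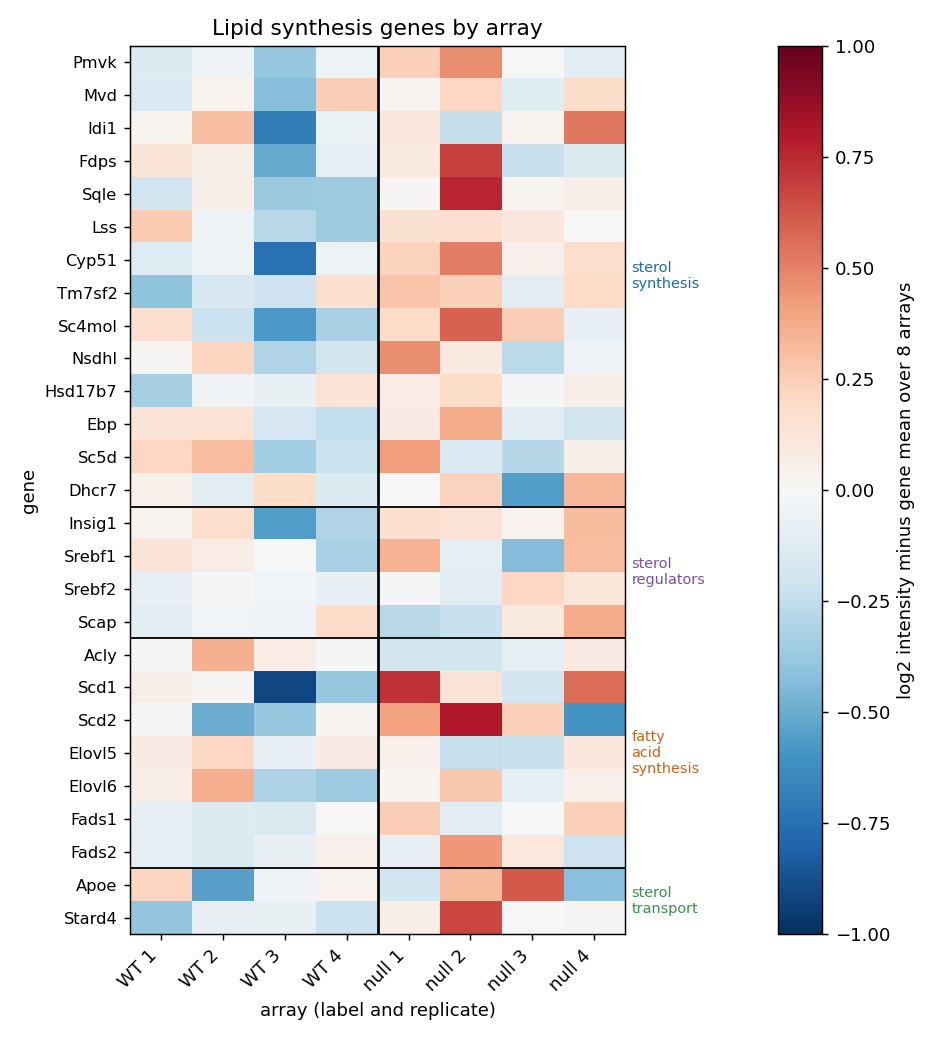
Log2 intensity of each of the 27 genes minus its mean over the 8 arrays (colour), by gene and array, with roles separated by horizontal lines and the labelled groups by a vertical line. Wild-type replicate 3 is the lowest array for 9 of the 14 sterol synthesis genes and null replicate 2 the highest for 7.

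A pair of arrays stood out in these genes. Wild-type replicate 3 was the lowest of the 8 arrays for 9 of the 14 enzymes, against 9.52% of all genes, and null replicate 2 the highest for 7 of 14, against 17.9%. Mean deviations of the 14 enzymes from their own averages were -0.03, 0.03, -0.35 and -0.11 on wild-type replicates 1 to 4 and 0.17, 0.29, -0.09 and 0.07 on null replicates 1 to 4. Null replicate 3 thus lay below wild-type replicates 1 and 2, and the groups overlapped. Without wild-type replicate 3 the median difference was 0.11, and without null replicate 2 it was 0.15. Without wild-type replicate 3, Cyp51 stood at 0.32, Idi1 at 0.02, Mvd at 0.03 and Fdps at 0.07. Without null replicate 2, Sqle stood at 0.25 and Fdps at 0.01.

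Myelin genes were low on the same wild-type array. Of 15 oligodendrocyte markers, 13 were kept (Aspa and Ermn were not), and wild-type replicate 3 was the lowest array for all 13. All 13 had a higher mean in null arrays, with a median difference of 0.25. Their mean log2 level was 11.77, 11.78, 10.66 and 11.73 on wild-type replicates 1 to 4. On null replicates 1 to 4 it was 11.98, 11.53, 11.55 and 11.90. Apart from wild-type replicate 3, the wild-type arrays thus lay among the null arrays. Cnp, which encodes a myelin enzyme, differed by 0.48 (SE 0.20) and Mobp, a myelin protein gene, by 0.57 (SE 0.31); 0 passed. With the oligodendrocyte mean of each array as a covariate, the median of the sterol enzymes was 0.14, with 13 of 14 above 0.

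Cortical and most astrocyte markers had higher means in null arrays. All 6 kept cortical excitatory neuron markers were higher (median 0.89; Neurod6 was among those not kept), with mean levels of 5.08 to 6.87 across wild-type arrays and 6.23 to 8.12 across null arrays, highest on null replicate 2. With their mean as a covariate the median of the sterol enzymes was 0.09, with 11 of 14 above 0. Of 12 kept astrocyte markers 10 were higher (median 0.15), with mean levels of 9.21 to 9.33 across wild-type arrays and 9.32 to 9.54 across null arrays; Slc4a4 was not kept, and the part of astrocytes was not tested. All 11 medium spiny neuron markers were lower at their brightest probe (median -0.30, 4 at an unadjusted limma p under 0.05, 0 passed). Further detected probes of Ppp1r1b and Pdyn were lower too, while a further Arpp21 probe was higher by 0.16 (SE 0.17). Mean levels of the 11 were 11.55 to 11.87 across wild-type arrays and 11.02 to 11.67 across null arrays. Adcy5 was not kept, and the part of these neurons was not tested. All 9 kept endothelial markers were lower as well (median -0.19, 3 at an unadjusted p under 0.05, 0 passed), with mean levels of 7.87 to 8.05 across wild-type arrays and 7.64 to 7.93 across null arrays; Cdh5 was not kept, and their part was not tested. Of 9 kept microglia markers 5 were higher (median 0.001).

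The sterol enzymes also followed the split by Eif2s3y. All 14 had a higher mean on the 4 arrays where Eif2s3y was detected than on the other 4 (median 0.28), against 48.3% of all genes. Of those 4 arrays 3 were labelled null. Other lists parted with it too. All 13 oligodendrocyte markers (median 0.31) and all 6 cortical markers (1.12) were higher there, as were 9 of 12 astrocyte and 5 of 9 microglia markers. Of medium spiny neuron markers 0 of 11 were higher (-0.29), and of endothelial markers 2 of 9. Of further fatty acid genes, given below, 18 of 22 were higher, and of further sterol synthesis genes 3 of 8. The detected set holds 1 wild-type and 3 null arrays. Within it the median difference of the sterol enzymes between null and wild-type was 0.15, with 10 of 14 higher (48.3% of all genes). Within the other set, with 3 wild-type arrays and 1 null array, it was 0.06 with 8 of 14 higher (48.8%). With Eif2s3y detection as a covariate, a choice made after the data were seen, the median was 0.08 with 10 of 14 above 0. Cyp51 differed by 0.36 within each set and Sc4mol by 0.45 and 0.49, while Idi1, Fdps and Mvd stood at 0.06, 0.04 and 0.05 in the fit with the covariate.

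**Figure D3:**
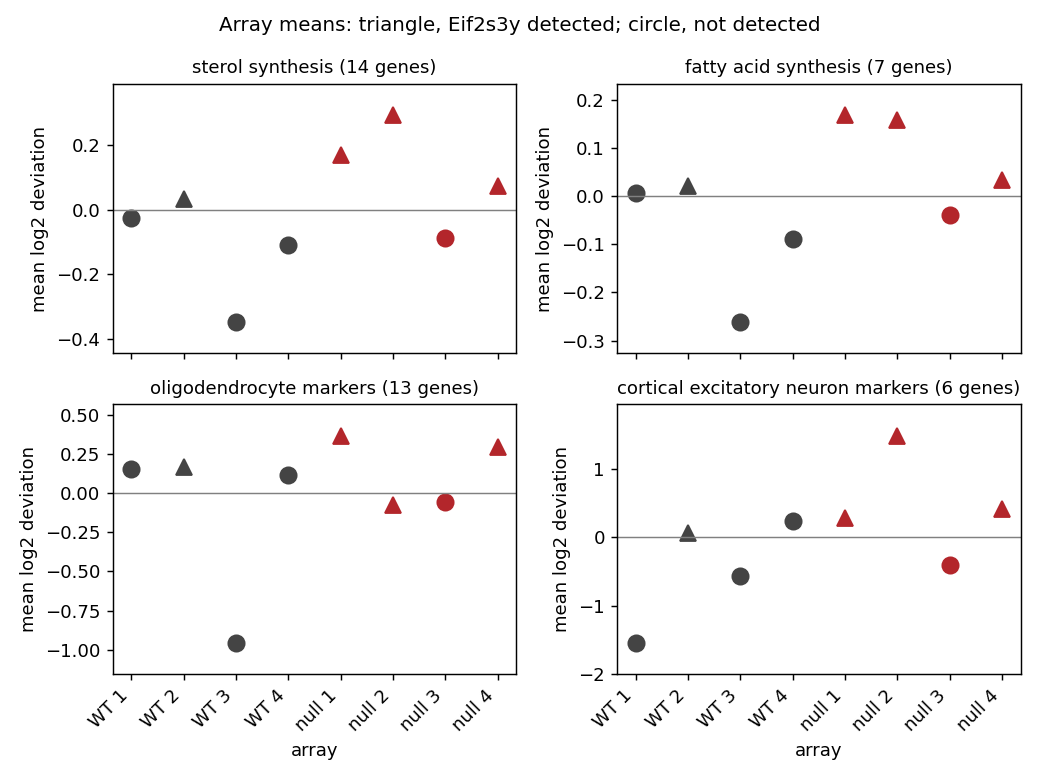
Mean deviation of each list's genes from their averages over the 8 arrays (y axis, log2; each panel has its own scale), by array, in grey for wild-type and red for null, with triangles where Eif2s3y was detected. For sterol synthesis every triangle lies above every circle, from 0.03 to 0.29 against -0.35 to -0.03, and wild-type replicate 3 is also the lowest for oligodendrocyte markers.

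The regulators of the pathway differed less evenly. Insig1, itself switched on by SREBP, had 3 detected probes that differed by 0.32 (SE 0.16), 0.29 (SE 0.15) and 0.35 (SE 0.14), while a further probe was not detected on any array. The brightest read 8.727, 8.865, 8.131 and 8.390 in wild-type arrays, against 8.850, 8.834, 8.722 and 9.003 in null arrays. The null arrays lay close together and the wild-type arrays spread, with replicate 3 lowest again, so the groups overlapped (adjusted p = 0.740); without wild-type replicate 3 the difference was 0.19. Only the dimmest of the 3 probes had no overlap, by a narrow margin (6.380 against 6.395).

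Srebf2 encodes SREBP-2, the main activator of the sterol enzymes. It read 7.36, 7.43, 7.42 and 7.37 in wild-type arrays, against 7.44, 7.34, 7.65 and 7.57 in null arrays; the groups differed by 0.10 (SE 0.11, 95% interval -0.14 to 0.35, adjusted p = 0.863). The lowest array of all was a null one, and the groups overlapped.

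Srebf1 encodes SREBP-1, which favours fatty acid genes, and was dim. It read 5.08, 5.02, 4.95 and 4.62 in wild-type arrays, against 5.30, 4.85, 4.51 and 5.25 in null arrays, and differed by 0.06 (SE 0.18, adjusted p = 0.959). Each group held high and low arrays. Scap read 8.12, 8.20, 8.20 and 8.42 in wild-type arrays, against 7.95, 8.01, 8.33 and 8.60 in null arrays; its difference was -0.01 (SE 0.15, adjusted p = 0.989), and 8.95e-05 under cyclic loess. The null arrays held both the lowest and the highest value. Of the 4 regulators 3 were higher, with a median of 0.08, and 0 passed. Without null replicate 4 only 2 of 4 were higher and the median was 0.03; without null replicates 1 to 3, each in turn, it was 0.10, 0.13 and 0.14.

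Promoter sequences of the enzymes and regulators often held boxes for NF-Y and Sp1, factors known to act beside SREBP. The sequences come from RefSeq (GRCm38.p6), from 250 bases before to 50 after each start, and 21 of the 27 genes had an entry; a gene counts when any of its starts matches on either strand. The NF-Y box CCAAT was found for 12 of 12 sterol enzymes with an entry, against 42.3% of protein-coding genes and 41.1% of all genes, and for 3 of 4 regulators and 2 of 4 fatty acid genes. The Sp1 box GGGCGG was found for 11 of the 12 (49.2% of protein-coding genes), and the E-box CACGTG for 3 (8.91%). The sterol regulatory element TCACNCCAC was found for 0 of the 21 (1.41%), although Hmgcs1, which has no values here, holds 1, and the looser TCACNCNAC, which includes it, for Nsdhl alone (3.3%). Only these letters were searched in this window. The promoters of the pair of enzymes with the smallest p, of Nsdhl and of Insig1 are shown 5′ to 3′ to set the boxes in place; capitals mark CCAAT on either strand and, in Nsdhl, the match to TCACNCNAC. Cyp51 lies on the minus strand at chr5:4104648-4104947, Sc4mol on the minus strand at chr8:64733529-64733828, Nsdhl on the plus strand at chrX:72918271-72918570 and Insig1 on the plus strand at chr5:28071162-28071461.
Cyp51: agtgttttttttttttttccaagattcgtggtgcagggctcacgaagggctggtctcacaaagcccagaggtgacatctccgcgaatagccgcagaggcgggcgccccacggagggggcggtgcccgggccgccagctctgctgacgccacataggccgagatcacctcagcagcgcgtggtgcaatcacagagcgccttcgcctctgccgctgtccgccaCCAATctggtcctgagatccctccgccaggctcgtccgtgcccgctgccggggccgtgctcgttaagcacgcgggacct
Sc4mol: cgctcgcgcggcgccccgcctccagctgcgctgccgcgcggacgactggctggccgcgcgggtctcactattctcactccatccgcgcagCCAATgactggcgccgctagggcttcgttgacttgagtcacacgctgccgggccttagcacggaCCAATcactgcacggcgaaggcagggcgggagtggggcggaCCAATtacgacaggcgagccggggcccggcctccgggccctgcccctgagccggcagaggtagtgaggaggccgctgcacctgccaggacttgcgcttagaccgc
Nsdhl: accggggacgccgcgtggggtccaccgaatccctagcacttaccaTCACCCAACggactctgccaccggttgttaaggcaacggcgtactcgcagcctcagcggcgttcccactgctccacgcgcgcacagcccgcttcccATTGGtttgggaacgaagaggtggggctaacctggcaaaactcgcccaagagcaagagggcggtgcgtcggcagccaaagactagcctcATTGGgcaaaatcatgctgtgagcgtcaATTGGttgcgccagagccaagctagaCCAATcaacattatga
Insig1: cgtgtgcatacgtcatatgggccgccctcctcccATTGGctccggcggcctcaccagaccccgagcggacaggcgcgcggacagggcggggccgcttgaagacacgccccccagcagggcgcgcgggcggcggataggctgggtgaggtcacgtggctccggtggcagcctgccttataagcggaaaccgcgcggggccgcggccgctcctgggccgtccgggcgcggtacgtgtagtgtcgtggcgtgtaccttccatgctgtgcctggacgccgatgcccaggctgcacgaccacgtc
Cyp51 has 1 CCAAT box, which begins 29 bases before the start, and Sc4mol has 3. Nsdhl, whose difference was among the smaller ones, has 4.

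Fatty acid synthesis genes went both ways. Of 7 measured genes 5 were higher in null arrays, with a median of 0.13, and Acly and Elovl5 were lower; 0 passed. The median was 0.05 without null replicate 2. The desaturase genes stood highest.

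Scd1, which encodes a stearoyl-CoA desaturase that makes oleate, read 10.70, 10.65, 9.73 and 10.26 in wild-type arrays, against 11.36, 10.78, 10.44 and 11.19 in null arrays. Wild-type replicate 3 was again far the lowest, and only null replicate 3 fell among the wild-type arrays. The difference of 0.61 (SE 0.24, 1.53-fold, 95% interval 0.08 to 1.14, adjusted p = 0.707) was the largest of the 27 genes. It was 0.41 without wild-type replicate 3, 0.34 with Eif2s3y detection as a covariate and 0.30 with the Ddx3y level.

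Scd2, its relative in brain, read 7.75, 7.24, 7.36 and 7.76 in wild-type arrays, against 8.14, 8.53, 7.97 and 7.13 in null arrays. Null replicates 1, 2 and 3 lay above every wild-type array and null replicate 4 below all of them, giving 0.42 (SE 0.25, adjusted p = 0.762), and 0.22 without null replicate 2. Fads1, the delta-5 desaturase gene of polyunsaturated fatty acids, read 12.44, 12.39, 12.38 and 12.52 in wild-type arrays, against 12.77, 12.41, 12.52 and 12.76 in null arrays. Null replicates 1 and 4 were highest, null replicate 3 stood level with wild-type replicate 4 and null replicate 2 fell among the wild-type arrays, with a difference of 0.19 (SE 0.12, adjusted p = 0.771).

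Among the other genes, the delta-6 desaturase gene Fads2 differed by 0.13 (SE 0.15) and the elongase gene Elovl6 by 0.12 (SE 0.17). Fads2 stood at 0.003 without null replicate 2, and Elovl6 at 0.02 without wild-type replicate 4. The elongase gene Elovl5, which lengthens polyunsaturated chains, differed by -0.14 (SE 0.13). Acly, which encodes the ATP citrate lyase that supplies cytosolic acetyl-CoA to both pathways, differed by -0.19 (SE 0.13). Wild-type replicate 2 held the highest level of Acly, Elovl5 and Elovl6. All 7 genes had a higher mean on the arrays with Eif2s3y detected, by a median of 0.07, against 48.3% of all genes. The differences ran from 0.001 for Fads2 to 0.71 for Scd1. Within each labelled group, Fads2 and Scd2 were lower on the arrays with Eif2s3y detected.

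Sterol transport was measured by a pair of genes. Stard4 encodes a carrier of cholesterol between membranes and is known to respond to SREBP. It read 7.31, 7.61, 7.62 and 7.48 in wild-type arrays, against 7.76, 8.37, 7.70 and 7.71 in null arrays. The groups did not overlap, and null replicate 2 stood far above the other null arrays, as it did for Sqle. The difference was 0.38 (SE 0.16, 1.30-fold, adjusted p = 0.707), and 0.21 without null replicate 2.

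Apoe encodes the lipoprotein component by which astrocytes export cholesterol. It read 11.38, 10.62, 11.13 and 11.20 in wild-type arrays, against 10.97, 11.48, 11.77 and 10.75 in null arrays. The groups were mixed, with a difference of 0.16 (SE 0.23, adjusted p = 0.892). Apoe was lower where Eif2s3y was detected, by 0.41, and with that detection as a covariate its difference was 0.49 (SE 0.19, adjusted p = 0.581). It was -0.01 without null replicate 3 and 0.01 without wild-type replicate 2.

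Other genes of the same pathways, taken from wider lists, went both ways. Of 8 kept further genes of sterol and isoprenoid synthesis 5 were higher, with a median of 0.08; Acat2, the thiolase at the head of the pathway, differed by 0.25 (SE 0.19) and Por, which passes electrons to Cyp51 and Sqle, by -0.21 (SE 0.14). Of 13 further regulators 6 were higher (median -0.01), with the acyltransferase gene Gpam at 0.40 (SE 0.13). In this list 1 gene, Gpam, was higher without overlap, against 1.5% of all genes, and 1 was lower without overlap, against 2.75%. Pgrmc1, a haem-binding partner of Cyp51, stood at -0.16 (SE 0.13).

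Of 22 further fatty acid genes 14 were higher (median 0.04), with Ptpla (now Hacd1), a dehydratase of chain elongation, at 0.33 (SE 0.12), its relative Ptplb (now Hacd2) at -0.28 (SE 0.15) and the mitochondrial transferase gene Mcat at -0.40 (SE 0.19). Of 20 further transport and turnover genes 14 were lower (median -0.07). The exporter gene Abcg1 stood at -0.44 (SE 0.19), the lipid transporter gene Abca3 at -0.41 (SE 0.14) and the sterol-binding protein gene Osbpl2 at -0.27 (SE 0.12), while Apoa1 stood at 0.31 (SE 0.14). In these 4 lists 0 genes passed, and at an unadjusted p under 0.05 limma gave 0, 1, 1 and 1 higher and 0, 0, 0 and 3 lower, against 3.04% and 3.93% of all genes. Without overlap, the further fatty acid genes held 1 higher gene and 0 lower, against 1.5% and 2.75% of all genes. The further synthesis genes and the further transport genes held 0 in either direction.

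**Figure D4:**
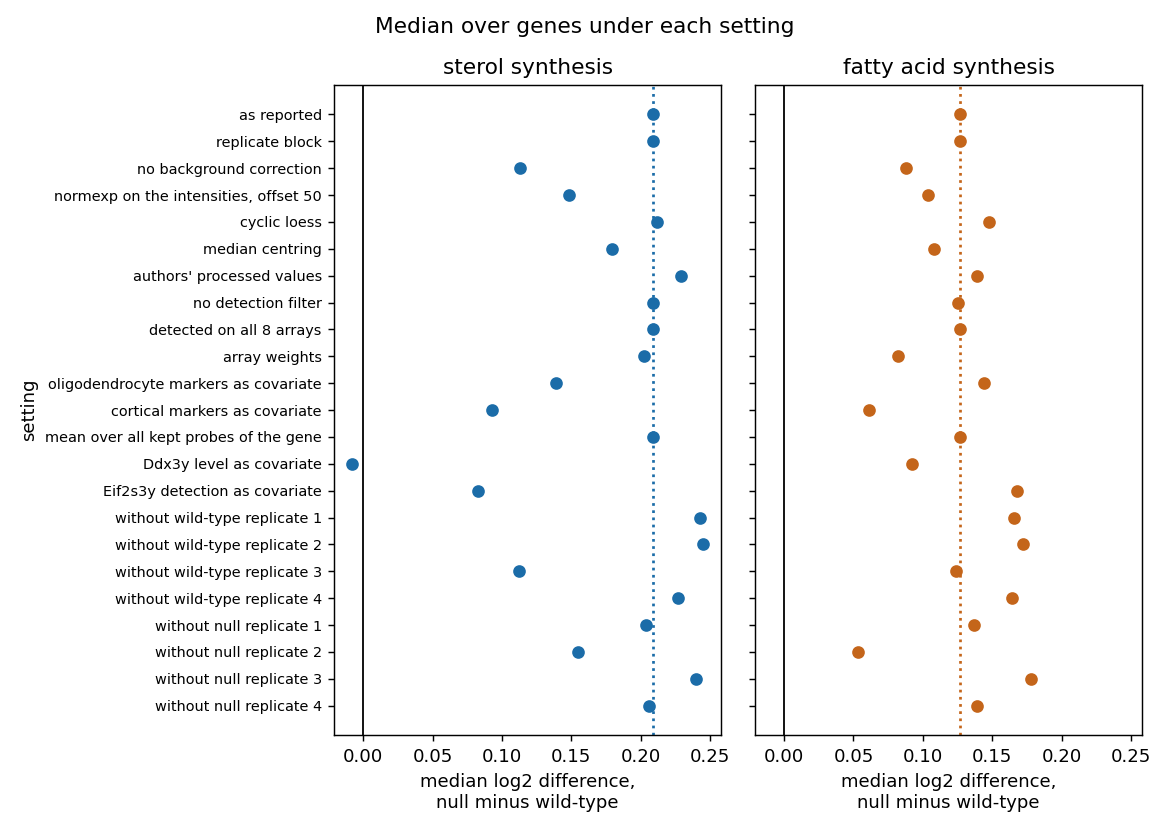
Median log2 difference (x axis, null minus wild-type) over the 14 sterol synthesis and the 7 fatty acid synthesis genes under each setting (rows); dotted lines mark the values as reported. The sterol median runs from -0.01 with the Ddx3y level as a covariate to 0.25 without wild-type replicate 2, and the fatty acid median from 0.05 without null replicate 2 to 0.18 without null replicate 3.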

How the data were processed

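Gene expression was measured in 8 striatum samples on Illumina bead arrays. Sample titles gave the groups and replicate numbers. Per the labels' protocols, Trizol extracts of frozen tissue were turned into biotinylated cRNA; the submitters' processing notes name GenomeStudio. The deposited table holds, per the file headers, a bead-averaged linear intensity without normalization between arrays and, beside it, the detection p-value of the probe. How the authors made their processed intensity values, and the genome build of the probes, are not given in the sources used here.

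Background correction and normalization used neqc from limma 3.58.1 (R 4.3.3; background from the detection p-values, offset 16, quantile, log2). Each of the 13413 kept probes was fitted with lmFit and eBayes, as the two-sided contrast of null with wild-type, adjusted over all of them by Benjamini-Hochberg and a threshold of 0.05. Each gene stands for its kept probe with the highest mean, and levels of different probes are not compared. Current symbols are from RefSeq. Every kept member is named; the 3 with the smallest p per role and the regulators are given array by array, and the 3 with the smallest p of each wider list, apart from some genes that are not reported here. Genes in the text on covariates were chosen after their values were seen. Members and lists were chosen with earlier results of these data known. Tested on simulated arrays (13413 probes, 200 of them shifted), the fit called 50% of 1.5-fold, 94% of 2-fold and 100% of 4-fold shifts, with 7 false calls. The simulated noise was independent between probes, unlike that of the real arrays, so these shares do not give the power on the real arrays. Precision is limited by having 4 arrays per group.

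The alternatives tried were a replicate block, other background corrections and normalizations, the authors' processed values floored at 16, other detection filters, array weights, marker means as covariates and leaving out each array. Covariates from Ddx3y and Eif2s3y were added after seeing the data.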

Additional observations from a re-analysis of the deposited data

Results flagged for a closer look

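In 3 of 66 groups of 4 arrays, 1 array stood apart from the other 3 of its group, near the 1 in 20 that chance gives. The 66 groups are the 33 member probes in each label, so genes with several probes count more than once. For Cyp51, wild-type replicate 3 read 7.77 (log2), against 8.38 to 8.46 on the other wild-type arrays. For the brighter Sqle probe, null replicate 2 read 10.03, against 9.28 to 9.34. For Stard4, null replicate 2 read 8.37, against 7.70 to 7.76. The same array gave the high value of both Sqle and Stard4, and the low value of Cyp51 came from the array with the lowest oligodendrocyte marker mean. With a share of flags near that of chance, this is not read as a pattern.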

How the results depend on the processing

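Of 566 recomputed differences of single genes, 526 kept their direction and 0 passed the threshold. All 14 sterol enzymes stayed higher with no background correction, with normexp, with cyclic loess and with either other detection filter; the number fell to 13 with median centring, the authors' processed values, array weights or the oligodendrocyte covariate and to 11 with the cortical covariate. With the level of the Y-linked Ddx3y as a covariate 7 of 14 stayed above 0 and their median was -0.008. That level did not overlap between the groups, by a narrow margin (at most 10.59 against at least 10.61). On arrays with Eif2s3y detected it was 10.52 for wild-type and 11.18 to 11.24 for null. On the other arrays it was 9.64 to 10.61, although the Y-linked Jarid1d read only 4.29 to 4.42 there. What the Ddx3y probe measured on those arrays is not known, so this fit is not an adjustment for sex. The Ddx3y level thus runs with both the label and the Eif2s3y split, which this fit cannot tell apart. Under it the medians of further regulators, fatty acid genes and transport genes were 0.14, -0.13 and -0.14, and Mvd (-0.24), Idi1 (-0.0413), Tm7sf2 (-0.11), Nsdhl (-0.12), Hsd17b7 (-0.14), Sc5d (-0.13), Dhcr7 (-0.18) and Srebf1 (-0.0488) turned. With Eif2s3y detection the median of further transport genes was -0.13, and Nsdhl (-0.0769), Ebp (-0.0423), Sc5d (-0.185), Dhcr7 (-0.15), Srebf1 (-0.13), Elovl6 (-0.0723) and Scap (0.0324) turned. With the cortical covariate Mvd (-0.0188), Hsd17b7 (-0.000128) and Dhcr7 (-0.11) turned, with the oligodendrocyte covariate Sc5d (-0.12), and with cyclic loess Scap (8.95e-05). Dhcr7 was -0.000523 with median centring, -0.0285 in the authors' processed values and -0.0642 with array weights. The causes were not tested.

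Leaving out 1 array moved Nsdhl between -0.00545 and 0.24, Ebp between -0.0455 and 0.145, Sc5d between -0.116 and 0.127, Dhcr7 between -0.105 and 0.192, Srebf1 between -0.0437 and 0.218, Scap between -0.14 and 0.0759 and Apoe between -0.0144 and 0.328. The median of sterol enzymes moved between 0.112 and 0.245, that of further sterol synthesis genes between -0.053 (without null replicate 2) and 0.104, and that of further transport genes between -0.104 and 0.003 (without null replicate 2). Member probes without overlap numbered 3 as reported, 0 with median centring (1.36% of all probes, against 4.14%) and 3 to 7 with 1 array left out, where 5.96% to 9.58% of all probes had none (7 members and 8.77% without null replicate 4, 5 members and 7% to 9.58% without wild-type replicate 1 or 4 or null replicate 2 or 3). Probes called over the whole array numbered 0 to 1; the 1, without null replicate 4, was Ttr, the gene of transthyretin and no member. Same-numbered arrays did not deviate together in every pair (r from -0.004 to 0.23). For wild-type replicates 1, 3 and 4 the null array with the highest correlation had the same number. For wild-type replicate 2 it was null replicate 4. Whether the numbers pair the samples cannot be told from these correlations. With the replicate block 0 members were called, the median of sterol enzymes stayed at 0.21 and the smallest adjusted p over all probes was 0.518.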
